A study of Mus musculus with 2 samples.

Results

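The 4 myogenic regulatory factors are basic helix-loop-helix transcription factors that turn precursor cells into skeletal muscle. They bind the E-box, a short DNA motif, as dimers with ubiquitous E proteins. MyoD (gene Myod1) and Myf5 commit cells to the muscle lineage, myogenin (Myog) drives their terminal differentiation, and Myf6 (also called MRF4) acts in commitment and in mature fibres. FoxO3 is a forkhead transcription factor that insulin signalling keeps out of the nucleus, and in muscle it is best known for its role in atrophy. The loci described here are the windows of 50 kb on each side of Myod1 (about chr7:53631900-53634500, mm9), of Myog (about chr1:136186700-136189300) and of the neighbouring Myf5 and Myf6 (about chr10:106919900-106932000). A peak was a member if its summit, the position of highest signal, lay in a window. Of 45457 myotube peaks 30 were members, 6 at Myod1, 22 at Myog and 2 at the Myf5 and Myf6 pair. Of 501 myoblast peaks 0 were members.

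The peaks come from ChIP-seq of FoxO3 in C2C12, an established mouse myoblast line whose cells stop dividing and fuse into myotubes in medium low in serum. The myoblast library is labelled hour -24, before the switch to differentiation medium (growth medium was DMEM with FBS), and the myotube library hour 72 after it (differentiation medium was DMEM with horse serum), both with the same anti-Foxo3 antibody and neither with a genetic change named in the labels. Each condition is 1 library, so no value below has a replicate error and no difference between conditions was tested. Peaks carry no expression values, so the labelled cell types could not be checked against markers.

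The strongest of the 30 peaks lay at the Myog promoter, and 0 summits lay within 2 kb of the approximate starts of Myod1, Myf5 and Myf6. Promoters of 2 of the 4 genes, Myog and Myf5, were found among the RefSeq promoter sequences, and both are printed here for that reason alone. They run from 250 bases before the transcription start to 50 after it, 5′ to 3′ along the gene, from build GRCm38.p6 (Myog chr1:134289754-134290053, plus strand; Myf5 chr10:107486085-107486384, minus strand), a different build from that of the peaks. Capitals mark matches to the E-box CANNTG and to a loose form of the motif of MEF2, a partner of these factors: CTA, 4 letters of any kind, TA and any last letter.
Myog: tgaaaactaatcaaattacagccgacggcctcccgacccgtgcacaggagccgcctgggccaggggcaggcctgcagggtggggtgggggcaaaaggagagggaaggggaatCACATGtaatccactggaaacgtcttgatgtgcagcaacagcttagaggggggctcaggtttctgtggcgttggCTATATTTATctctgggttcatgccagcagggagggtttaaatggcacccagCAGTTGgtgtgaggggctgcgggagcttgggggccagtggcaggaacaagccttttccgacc
Myf5: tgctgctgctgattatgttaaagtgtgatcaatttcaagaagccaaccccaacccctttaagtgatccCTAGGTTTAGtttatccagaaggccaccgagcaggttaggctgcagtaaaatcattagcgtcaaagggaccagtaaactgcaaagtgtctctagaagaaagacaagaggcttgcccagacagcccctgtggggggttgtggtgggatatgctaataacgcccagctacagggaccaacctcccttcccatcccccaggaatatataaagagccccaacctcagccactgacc

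The Myog promoter held 2 E-boxes, CACATG starting 138 bases and CAGTTG 12 bases before the start, and CTATATTTAT starting 64 bases before it. The Myf5 promoter held 0 E-boxes, and CTAGGTTTAG starting 182 bases before the start. Motifs were searched on both strands of all 32851 RefSeq promoters of this length, of which 72.3% held CANNTG and 21.0% held the loose MEF2 motif. A narrower form, which must end in G, is a subset of the loose form. It was in 3.69% of all promoters, in that of Myf5 and not in that of Myog. Both forms leave the 4 middle letters free, and these were GGTT in the Myf5 match and TATT in the Myog match. The last letter alone therefore does not make the Myf5 match the better MEF2 site. Neither promoter held CAGCTG or CACCTG, which are among the E-box cores bound by MyoD but not all of them (32.9% of all promoters). Neither held the FoxO motif GTAAACA, which on the other strand reads TGTTTAC (3.65%). A match is a description of the letters and not evidence of binding.

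All 30 FoxO3 peaks near these genes came from the myotube list, and they were most numerous around Myog. The absence of myoblast peaks is what the lists give almost everywhere: the 3 windows would hold 0.0621 myoblast peaks at that list's mean density, and 0.224% of all myotube peaks overlapped a myoblast peak. The 22 Myog peaks came to 214 per Mb, 12.1 times the mean of the myotube list (95% Poisson interval 7.57 to 18.3). The 6 Myod1 peaks came to 3.30 times the mean (1.21 to 7.17). The 2 peaks at Myf5 and Myf6 came to 1.01 times the mean (0.122 to 3.63), to 1.81 times with a window of 25 kb on each side and to 0.695 times the mean of their own chromosome. These intervals cover counting error only. They take peaks as independent, whereas peaks lie in clusters, so they are too narrow. The whole genome span was cut into adjoining windows of the same length, of which 52.3% held 0 myotube peaks. Of 24956 windows 0.461% held at least 22 peaks, as the Myog window did, and 9.34% held at least 6, as the Myod1 window did. Of the 22838 slightly longer windows that match the pair, 34.7% held at least 2.

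**Figure D1:**
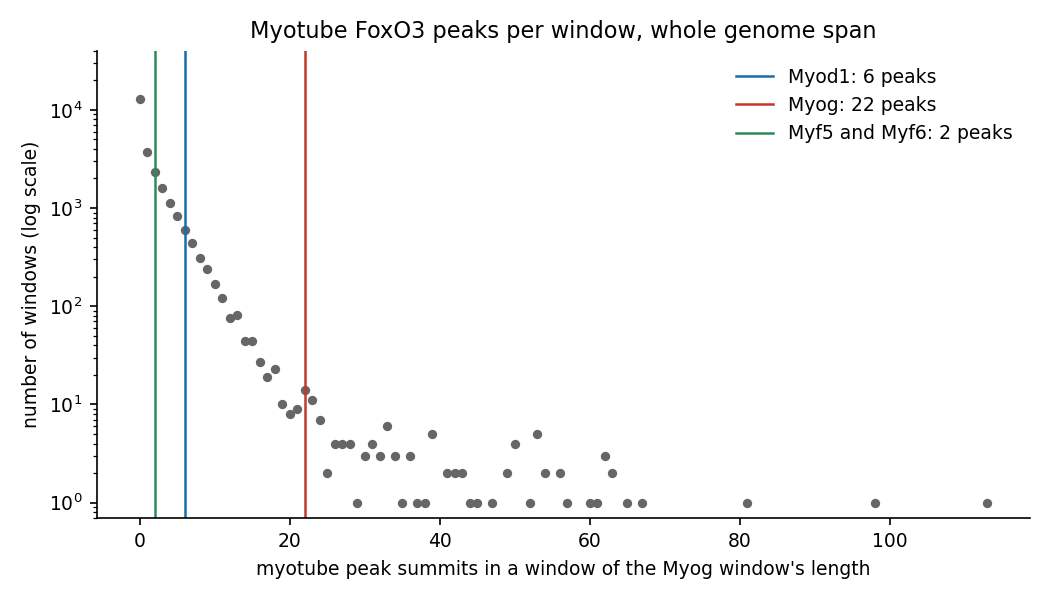
Number of genome windows (log scale) by the number of myotube FoxO3 summits in them, for 24956 adjoining windows of the length of the Myog window. Vertical lines mark the counts at Myog (22), Myod1 (6) and the Myf5 and Myf6 pair (2, from a slightly longer window); most windows held fewer peaks than the Myog and Myod1 windows.

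The 30 peaks were of moderate fold within the myotube list. The fold, which the authors' caller gave as signal over local background, had a median of 10.24 (range 4.25 to 19.98), against 8.59 over the whole list. By locus the median was 12.23 at Myod1 (6 peaks), 10.1 at Myog (22) and 10.11 at the pair (2). The upper quartile of the list was 11.6, so the Myod1 median lay above it. Of the 30 peaks 21 lay above the list median, against 49.9% of all myotube peaks. A −log10 q-value of at least 10 was reached by 18 of the 30 and by 41.4% of the list. The reads stacked at a summit (the pileup) were recovered from each fold and its p-value. They numbered 10 to 42 (median 19.5), against a list median of 18. Background was raised, meaning over 3 times the most frequent value of the list (1.51 reads), at 0 of the 30 and at 3.58% of all myotube peaks.

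**Figure D2:**
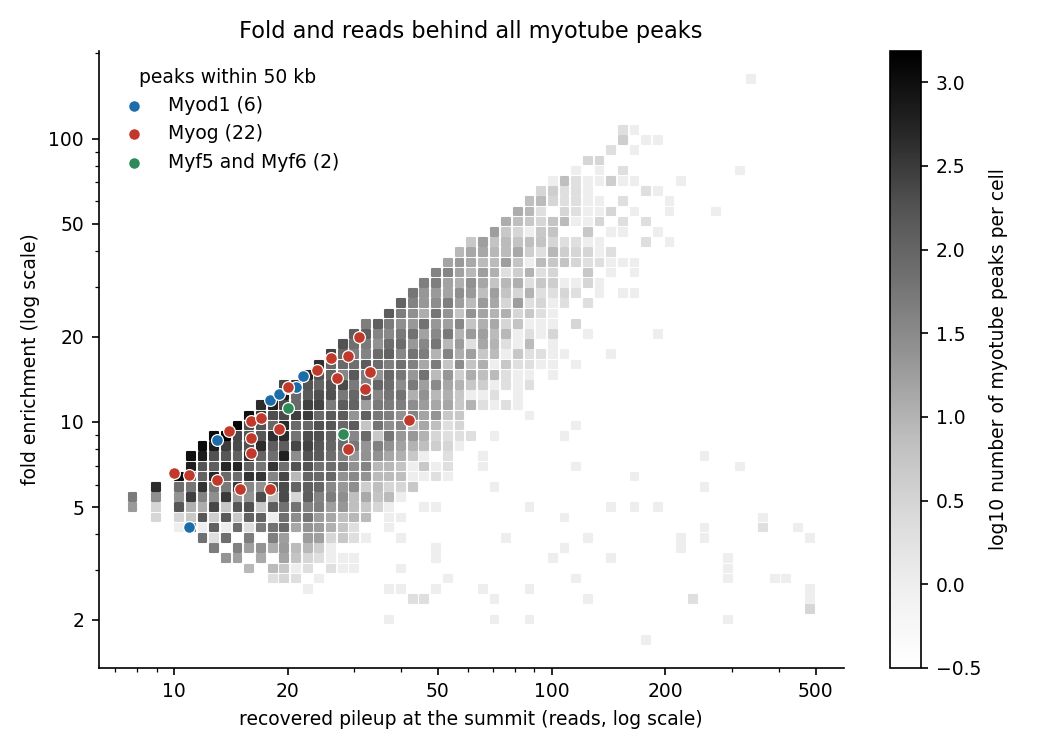
Fold enrichment against recovered pileup in reads at each summit (both log scales), with all 45457 myotube peaks as grey cells shaded by their number and the 30 peaks within 50 kb of the 4 genes as coloured points. The coloured points span folds of 4.25 to 19.98 and 10 to 42 reads, inside the bulk of the list and far below its strongest peaks.

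Distances are measured from approximate starts, in the direction of transcription. Myog reads toward higher coordinates and Myf5 toward lower ones, by the strands of their RefSeq promoters. Myod1 was taken to read toward higher coordinates and Myf6 toward lower ones, with Myf6 upstream of Myf5, from general knowledge of these genes and not from a table, and the words upstream and downstream at both rest on that. A promoter peak is one with its summit within 2 kb of a start. Windows for known enhancers were set from textbook knowledge and are wider than the elements themselves. As 52.3% of windows as long as the Myog window held 0 myotube peaks, windows of a few kb hold 0 at most places. The share of all promoters with a peak was not counted, so 0 in such a window is no result about its gene. No mm9 annotation was used, so whether a peak lies in an exon or intron was not examined.

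At Myod1, 0 peaks fell in the promoter window, and 5 of the 6 lay upstream. The strongest by fold, chr7:53626591-53626944, had its summit 5.21 kb upstream of the start, with a fold of 14.54, 22 reads and a −log10 q-value of 15.54. It lay in the window of 4 to 6 kb upstream that holds the distal regulatory region, an enhancer that maintains Myod1 expression in differentiated muscle. Of the myotube list, 85.9% had a lower fold.

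Farther upstream, 4 Myod1 peaks lay within 4.22 kb of sequence, chr7:53604581-53608805. Of these, 2 fell in the window of 18 to 26 kb upstream set for the core enhancer, which starts Myod1 expression in muscle precursors. The stronger, chr7:53608599-53608805, was 23.22 kb upstream, with a fold of 13.31 and 21 reads. The weaker, chr7:53608139-53608318, was 23.67 kb upstream, with the lowest fold of all 30 peaks (4.25, 11 reads, −log10 q-value 2.38), and 2.13% of the myotube list had a lower fold.

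The other 2 of that group lay just beyond the window. The peak chr7:53605495-53605915, the widest at Myod1 with 421 bp, was 26.10 kb upstream, with a fold of 11.90 and 18 reads. The peak chr7:53604581-53604702 was 27.27 kb upstream, with a fold of 8.59, 13 reads and the smallest width in the list (122 bp). No peak lay in the 18001 bp between the last summit of this group and that at the distal regulatory region.

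The sixth Myod1 peak, chr7:53634480-53634655, sat at the far end of the gene, 2.67 kb past the start and 0.1 kb beyond the end of the span. Its fold was 12.56, from 19 reads. Beyond it the next myotube peak lay 103.4 kb from the gene (fold 7.09), and on the upstream side the first outside the window was 55.1 kb away (fold 6.91). In GRCm38.p6 the nearest protein-coding neighbours are Otog upstream and Kcnc1 downstream.

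At Myf5 and Myf6, 0 peaks lay in either promoter window and 0 between the ends of the pair. The stronger of the 2 peaks by fold, chr10:106911656-106911786, lay 8.2 kb beyond the low end of the pair, downstream of both genes, with a fold of 11.20, 20 reads and a −log10 q-value of 11.95. The other, chr10:106936791-106936999, lay 4.91 kb upstream of the Myf6 start and 14.01 kb upstream of the approximate Myf5 start (13.01 kb if Myf5 starts 4 kb inside the pair). Its fold was lower, 9.02, over a background of 3.10 reads, but it had more reads (28) and a higher −log10 q-value (14.64).

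Myf5 and Myf6 are known to share enhancers spread over a long stretch upstream of the pair. The window of 6 to 8 kb upstream of Myf5, set for its early epaxial enhancer, held 0 peaks, as did that of 55 to 60 kb, set for its limb enhancer. The first myotube peaks outside the 50 kb limits lay 93.0 kb below (fold 6.56) and 72.3 kb above the pair (fold 7.74). The protein-coding neighbours in GRCm38.p6 are Lin7a on the low side and Ptprq on the high side.

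At Myog, 2 peaks fell in the promoter window. The peak chr1:136186420-136186621 had the highest fold of the 30 (19.98, 31 reads, −log10 q-value 26.22), and its summit was 192 bp upstream of the approximate start. Its edges lay 280 and 79 bp upstream. If the approximate start and the RefSeq start are the same, it covers the upstream part of the Myog promoter printed above, with CACATG. It then ends short of CTATATTTAT (64 bases before the start) and CAGTTG (12 bases). The near edge of the peak, 79 bp upstream, is close to CTATATTTAT, and the start is only approximate. The Myog span used was 2600 bp long, against 2545 bp in GRCm38.p6. A small shift of the start could bring CTATATTTAT into the peak, so which of these motifs the peak covers cannot be read. A fold of 19.98 or more was found at 5.96% of all myotube peaks. The other, chr1:136187576-136187785, was 0.98 kb past the start, inside the gene, and had a fold of 5.80, the joint lowest at Myog, from 18 reads over a background of 3.10.

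Upstream of Myog lay 10 peaks including that at the promoter, with folds of 5.80 to 19.98. Of these, 4 lay 5.30 to 6.78 kb upstream within 1.63 kb of sequence. The outer 2 of the 4 were stronger. The peak chr1:136181315-136181508 had a fold of 14.95 and 33 reads, and chr1:136179882-136180063 had a fold of 14.27 and 27 reads. The 2 between them had folds of 6.48 (11 reads) and 6.24 (13 reads). A pair 13.13 and 14.34 kb upstream had folds of 13.01 (32 reads) and 10.06 (16 reads), a single peak 24.17 kb upstream had 13.21 (20 reads), and the farthest pair, 44.59 and 45.03 kb upstream, had 5.80 and 7.74.

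Downstream of the Myog span lay 11 peaks, with folds of 6.61 to 17.03. The nearest, chr1:136190907-136191090, was 1.7 kb beyond the end of the gene, with a fold of 16.76 and 26 reads. The next, chr1:136199133-136199428, was 9.9 kb beyond it, with a fold of 15.22 and 24 reads. A further 4 peaks, 20.30 to 32.62 kb past the start, were weaker, with folds of 6.61 to 13.22.

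The last 5, 42.96 to 52.29 kb past the start, had widths of 249 to 606 bp. Among them chr1:136232875-136233386 had the second highest fold of the 30 (17.03, 29 reads), and chr1:136231075-136231323 had the most reads (42, fold 10.15, over the highest background, 4.14 reads). The protein-coding neighbour on this side in GRCm38.p6 is Ppfia4, and on the upstream side Adora1. How far these genes reach into the window was not examined, so the outer peaks cannot be assigned to Myog.

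Summits at Myog were a median of 2.96 kb apart, and 7 lay within 10 kb of the start. Joined at 12 kb, 20 of the 22 peaks belonged to 1 cluster of 24 peaks that ran on past the window, chr1:136162427-136261408 (99.0 kb). Clusters of 24 or more numbered 80 and held 8.63% of the myotube list. At the high limit of the window, the peak just inside (49.7 kb from the gene) had a fold of 10.32 and the next outside (53.6 kb) had 10.44. Myod1 had a cluster of 4 and one of 2, and the peaks at Myf5 and Myf6 each stood alone.

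Of the 30 peaks 0 overlapped a myoblast peak. The nearest myoblast peak to Myog lay 4.25 Mb away, that to Myf5 and Myf6 3.73 Mb from Myf6, and that to Myod1 15.5 Mb. In the myoblast list, at its most frequent background (0.44 reads), the lowest fold listed was 13.52, from 6 reads. Of the 30 myotube peaks 7 had a fold that high without raised background, 6 at Myog and 1 at Myod1. Of all 45457 myotube peaks, 7648 (16.8%) had both. Of the 7, 0 overlapped a myoblast peak, and of the 7648, 0.340% did. The folds of the lists stand over unlike backgrounds (most often 0.44 reads in myoblasts and 1.51 in myotubes). This cut therefore does not show whether a site could have been listed in myoblasts. The lists were called separately, and the total depth of both libraries is unknown. Myoblast peaks had a median pileup of 8 reads and a smallest width of 76 bp, against 18 reads and 122 bp for myotube peaks. Whether depth or read handling differed between the libraries was not tested. Lower FoxO3 occupancy in myoblasts and a weaker immunoprecipitation also cannot be told apart with 1 library per condition.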

How the data were processed

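FoxO3 ChIP-seq peaks of 2 libraries were used as deposited. The submitters' processing notes name MACS2 2.1.0 and mm9. The aligner, control library, duplicate handling and threshold were not given in the sources used here. The lists are narrowPeak files, per the file headers. In them the authors deposited for each peak a fold over background, which is a linear ratio. They also deposited its p-value and q-value as −log10, a whole-number score equal to 10 times the second of these, and the offset of the summit. Total depth is unknown.

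Pileup and background per peak were recovered from the deposited fold and p-value as the whole number of reads whose Poisson tail matched (tolerance 0.02 on the log10 scale). This succeeded for all 501 and 45457 peaks and, tested on simulated data, for 100% of 1000 peaks per list. The simulation took pileups from the recovered ones and used the same Poisson model, without rounding of the fold. It therefore checks only that the procedure returns the number put in, and not that the model holds for the deposited values. Simulated pileups that were not whole passed in 2.6% (myoblast folds) and 0.0% (myotube folds) of 1000 cases.

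Peaks were shared if they overlapped by at least 1 bp. Density used chromosome spans from first to last peak. The gene coordinates are approximate: the spans of 2600 bp at Myod1 and Myog and 12100 bp at the pair compare with 2619, 2545 and 11816 bp in the RefSeq table of GRCm38.p6, which served only for names, neighbours and lengths. The Myf5 start was set 3 kb inside the pair. In that build the start of the RefSeq promoter lies 3227 bp from the far end of Myf5, and the whole gene entry is 4020 bp long, so a start 4 kb inside was added as an alternative. Sites named are all in promoter or enhancer windows and the 6 of highest fold per locus; the text also gives values of some others, chosen after they were seen. Promoters were matched for 2 of the 4 genes; Myod1 and Myf6 were not matched. The loci, windows and comparisons were chosen with earlier results of these data known. The looser MEF2 motif and the joining of peaks were added after seeing the data. Alternatives were other windows, q-value thresholds and overlap rules. Software was scipy 1.17.1, numpy 2.4.6 and pandas 2.3.3 under Python 3.11.15.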

Additional observations from a re-analysis of the deposited data

How the results depend on the processing

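With 1 library per condition, no value has a replicate check, and the pileups of 10 to 42 reads limit what single peaks can show. Of 81 alternative values, 25 only narrowed a count that was already 0 and could not move it. Of the other 56, 9 moved beyond the counting error (densities), the interquartile range (medians) or 1.5 times (counts), and 47 did not. Some of the 47 could not have moved either. Among them were the myoblast counts and the shared peaks, with the nearest myoblast peak 3.73 Mb or more from a gene start. Counts without raised background were fixed too, as 0 of the 30 peaks had it. With windows of 100 kb there were 10 peaks at Myod1, 35 at Myog and 5 at Myf5 and Myf6, where the median fold became 9.02. With 25 kb there were 13 at Myog. Keeping peaks with a −log10 q-value of 10 or more left 12 at Myog, 1 of them in the promoter window. A promoter window of 5 kb took in 1 peak at Myod1 and 1 at Myf6, by construction. Joined at 25 kb, the Myog peaks fell in 1 cluster of 35, and at 5 kb the largest held 7. The myoblast counts were also 0 in the 7 alternatives that widened or moved a window or loosened its overlap rule. With the nearest myoblast peak 3.73 Mb or more away, these alternatives could not have raised them. With the Myf5 start 4 kb inside the pair, its promoter and both enhancer windows still held 0 peaks. No paired analysis was possible because there is 1 sample per condition.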
